A study of Mus musculus with 2 samples.

Results

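The miR-34 and miR-449 genes are 6 microRNA (miRNA) genes of the mouse, Mir34a, Mir34b, Mir34c, Mir449a, Mir449b and Mir449c. They were chosen by name, and all 6 are among the 1973 miRNA genes counted in this series. Small RNA under 30 nt long was sequenced from kidneys of B6NCrl mouse embryos at 15.5 days of development, with no treatment named in the labels. There is 1 group, made of 2 libraries that the labels number as biological replicates. Replicate 1 pooled the kidneys of 78 embryos and replicate 2 those of 62, male and female together. The spread between these libraries is the only measure of how pools differ, and intervals within a library cover counting error only. The whole organ was used, so fewer cells of a type and less RNA per cell cannot be told apart.

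MicroRNAs guide Argonaute proteins to messenger RNAs, and the bases at the start of the mature strand, the seed, do most of the pairing. The miR-34 and miR-449 miRNAs are known for a common seed. Mir34a is a direct transcriptional target of the tumour suppressor p53, and its product slows the cell cycle. The Mir34b and Mir34c pair is also induced by p53, while the Mir449 genes are known from E2F1-driven and multiciliated cells. Together the families are known to be needed for the many motile cilia of airway, oviduct and efferent duct cells, where they repress Ccp110, a protein that holds back cilium growth. Tubule cells of the mouse kidney carry primary cilia instead.

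The mature strands are shown because the shared seed is what defines the group, and because they bear on whether reads of the genes could be confused. The sequences are RefSeq's, on the GRCm38.p6 build, written 5′ to 3′ with bases 2 to 8 (the seed) in capitals. The table used gave 9 mature strands; miR-34c-5p and the Mir449b strands are named only.
miR-34a-5p: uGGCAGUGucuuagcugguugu
miR-34b-5p: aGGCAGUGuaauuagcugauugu
miR-449a-5p: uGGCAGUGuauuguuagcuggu
miR-449c-5p: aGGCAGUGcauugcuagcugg
miR-34a-3p: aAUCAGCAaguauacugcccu
miR-34b-3p: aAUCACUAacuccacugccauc
miR-34c-3p: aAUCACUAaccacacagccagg
miR-449a-3p: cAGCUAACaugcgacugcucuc
miR-449c-3p: cAGUUGCUagcugcacuacccu
All 4 of the 5p strands had the seed GGCAGUG, and no other strand among the 1738 mature sequences of the table had it. On the 3p side miR-34b and miR-34c shared the seed AUCACUA, which no further strand had, and the other 3p seeds were each found once. Past the seed the printed strands differ. The mature strands miR-34b-5p and miR-34c-5p were not compared, because the table lists no miR-34c-5p strand. The Mir34c hairpin is in the table, and its longest exact run in common with the Mir34b hairpin was 11 bases. How far their 5p arms match beyond exact runs was not measured. Base by base from the 5′ end and without gaps, miR-449a-5p matched miR-449c-5p at 18 of 21 positions and miR-34a-5p at 15 of 22, and miR-34b-3p matched miR-34c-3p at 17 of 22.

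The genes were compared by exact runs of letters only. Stretches alike but for a few bases were not searched for, so whether a read with mismatches could fit another member was not tested. A run of 20 nt common to another, non-overlapping miRNA gene of the GENCODE M21 annotation was found in 0 of the 6 genes. Among the 5 member hairpins in the RefSeq table, the longest run of letters common to any pair was 11 bases, for Mir34a with Mir449a and for Mir34b with Mir34c. The longest run shared with any other hairpin of the table was 14 bases, between Mir449a and Mir679. Copies outside annotated miRNA genes were not searched. This bears on the counts because reads that match several loci, 27.1% and 26.6% of all reads in replicates 1 and 2, are in no gene's count. The heptamer GGCAGUG itself, searched on the hairpin strand, occurred once in each of the 5 member hairpins and in 17 of 1005 hairpins of the table (1.69%).

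The genes lie at 3 places in the mm10 (GRCm38) assembly. Mir34a (ENSMUSG00000065493) stands alone on the forward strand of chromosome 4, from 150068454 to 150068555, and its last 17 bases overlap an exon of Gm37795, a gene of the TEC class (still to be tested by experiment) on the same strand. Mir34b (ENSMUSG00000065492, chromosome 9, 51103562 to 51103645) and Mir34c (ENSMUSG00000065587, 51103034 to 51103110) are on the reverse strand, with Mir34b first in the direction of transcription and 451 bases between them. Both sit in an intron of Btg4, an oocyte gene that runs on the other strand. Mir449c (ENSMUSG00000076146, chromosome 13, 113035983 to 113036091), Mir449b (ENSMUSG00000078027, 113037419 to 113037498) and Mir449a (ENSMUSG00000065575, 113037534 to 113037624) follow each other in an intron of Cdc20b on its own strand. Known regulators of multiciliation lie nearby on the same strand, Mcidas at 37.1 kb and Ccno at 46.8 kb from Mir449a.

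The files held 7434182 and 5863293 reads on the gene's own strand, and levels are given as CPM, reads per 1000000 of these. Each value covers a whole hairpin, so 5p and 3p strands are counted together. Of the 6 genes, 4 reached 1 CPM in both libraries, and over all 1973 genes 20.0% did. The 6 genes together held 4633 of the reads in replicate 1 and 4055 in replicate 2, or 0.0657% ± 0.00484 (SD, n = 2). The miR-34 genes held nearly all of that, 0.0615% ± 0.00534, and the miR-449 genes 0.00424% ± 0.000503 (SD, n = 2 each). The 11 listed miRNA genes of nephron and other kidney epithelium were all above 1 CPM in both libraries. Together they held 4.87% and 5.60% of reads. This list was chosen with earlier results of these data known, so it is no independent check of the labelled tissue.

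**Figure D1:**
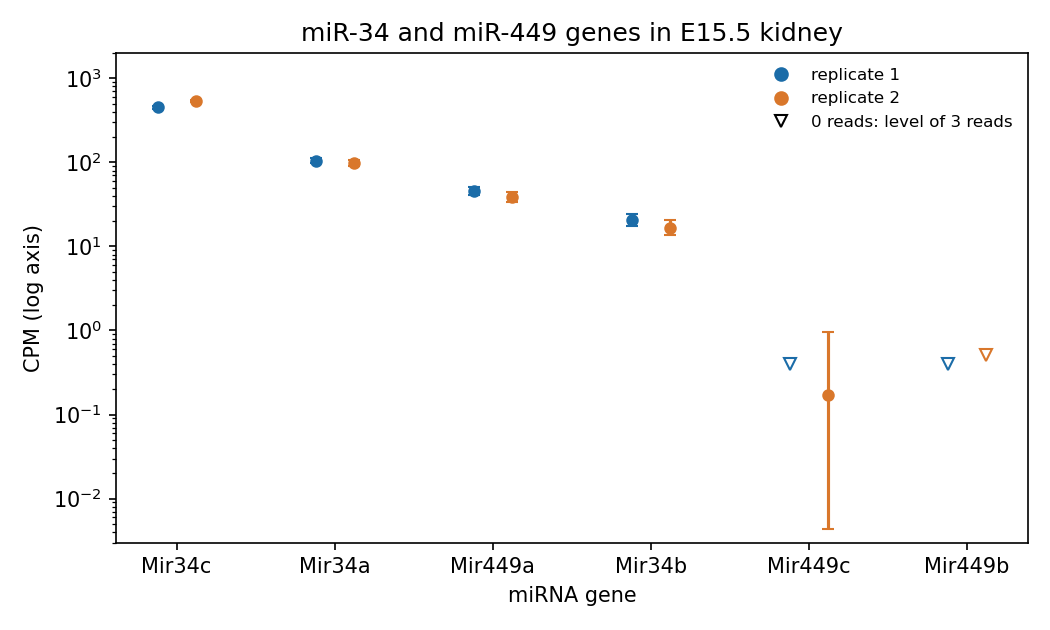
Level of each miR-34 and miR-449 gene in CPM (log axis) in replicate 1 (blue) and replicate 2 (orange), with 95% exact binomial intervals and open triangles at the level of 3 reads where no read was counted. Mir34c stood at 452 and 538 CPM, above Mir34a, Mir449a and Mir34b in turn, and Mir449c and Mir449b lay at or under the level of 3 reads.

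Mir34c was the leading gene of the group. It had 3359 reads in replicate 1 and 3152 in replicate 2, or 452 CPM (95% exact Clopper-Pearson interval 437 to 467) and 538 CPM (519 to 557). It ranked 107 and 104 among all genes in the respective libraries. Mir34c alone made up 72.5% (71.2 to 73.8) and 77.7% (76.4 to 79.0) of the group's reads. These intervals cover counting error only, and those of the libraries do not overlap, in CPM or in share.

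Mir34a, the p53 target that stands alone on chromosome 4, came next. It had 777 and 577 reads, or 105 CPM (97.3 to 112) in replicate 1 and 98.4 CPM (90.5 to 107) in replicate 2. The libraries overlapped within counting error, and the gene ranked 174 and 185. Mir34c exceeded Mir34a by 4.32 times (3.997 to 4.68) in replicate 1 and 5.46 times (5.00 to 5.98) in replicate 2. This ratio is formed within a library and does not depend on how the libraries are scaled.

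Mir34b lay far below its neighbour in the same cluster. It had 155 and 98 reads, or 20.8 CPM (17.7 to 24.4) and 16.7 CPM (13.6 to 20.4), which overlap. Mir34c exceeded it by 21.7 times (18.4 to 25.6) in replicate 1 and 32.2 times (26.3 to 39.7) in replicate 2. How alike the 5p strands of this pair are was not measured. Uneven pairs were common among neighbouring miRNA genes in these libraries, though the pairs counted are not independent. A gene lying between 2 neighbours could be counted in a pair with each. Over 58 pairs of neighbours on 1 strand within 10 kb, with mean counts from 100 up for the higher and 10 up for the lower gene and no 20 nt in common with other genes, the median fold between the 2 genes was 7.33, and 12 pairs were more uneven than Mir34c over Mir34b, at 26.3 times in mean CPM. Reads on the opposite strand were absent from Mir34b in replicate 1 and numbered 2 in replicate 2, and the other 5 genes had 0 in both.

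Mir449a carried the miR-449 family. It had 342 and 227 reads, or 46.0 CPM (41.3 to 51.1) and 38.7 CPM (33.8 to 44.1). The other genes of its cluster were at or under the limit of detection. Mir449b, only 35 bases before Mir449a, had 0 reads in both libraries, and a count of 0 allows up to 3 reads, which is 0.404 CPM in replicate 1 and 0.512 CPM in replicate 2. The upper limits of the two-sided exact interval used for the other genes were 0.496 and 0.629 CPM. Mir449c had 0 reads in replicate 1 and 1 read in replicate 2, at 0.171 CPM (0.00432 to 0.950). In replicate 1, with Mir449c at 0, Mir449a was at least 114-fold higher, against a floor of 3 reads in that library. The exact interval of this ratio, which also takes in the counting error of Mir449a, started lower, at 92.2. In replicate 2 the ratio was 227 (40.3 to 9005), an interval that is wide because it rests on 1 read.

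**Figure D2:**
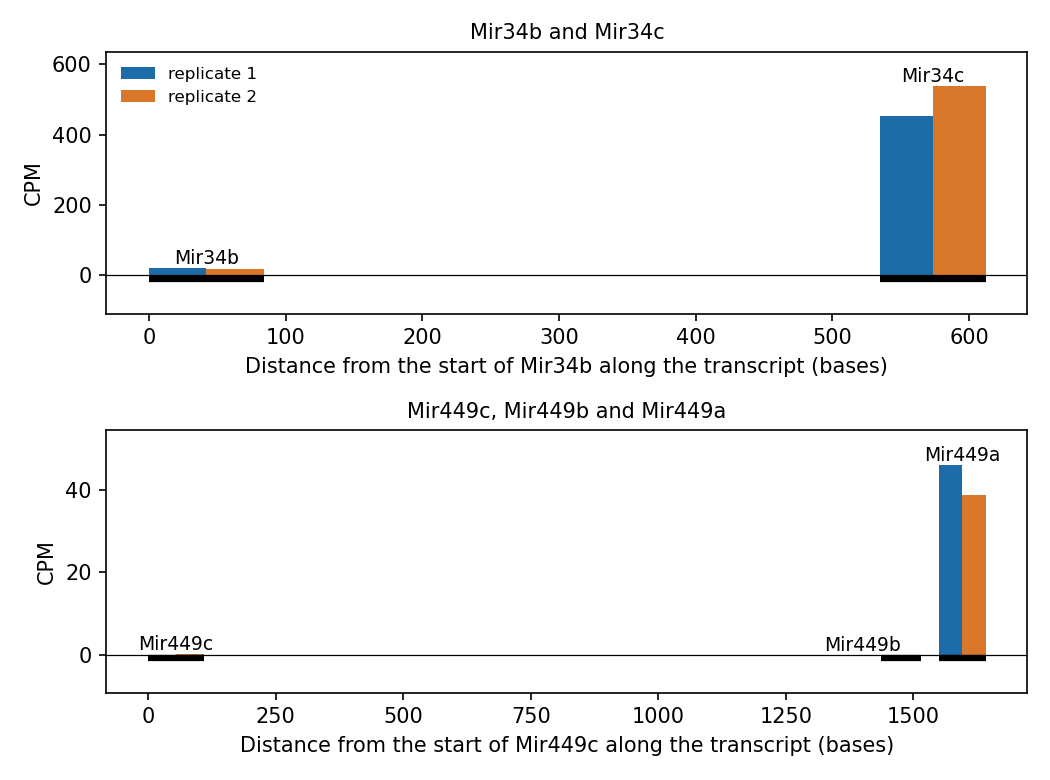
Levels in CPM (bars from 0, replicate 1 blue, replicate 2 orange) along the Mir34b and Mir34c cluster (top) and the Mir449 cluster (bottom), by distance in bases from the start of the first hairpin in the direction of transcription, with black bars for the hairpins. In both clusters the reads were concentrated on the last hairpin, Mir34c and Mir449a, while Mir34b had 20.8 and 16.7 CPM and Mir449c and Mir449b were at or near 0.

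The order of the levels was the same in both libraries for the 4 detected genes. Mir34c stood above Mir34a, Mir34a above Mir449a by 2.27 times (2.00 to 2.59) in replicate 1 and 2.54 times (2.18 to 2.98) in replicate 2, and Mir449a above Mir34b by 2.21 times (1.82 to 2.69) and 2.32 times (1.82 to 2.97). No interval of these ratios reached 1. Mir449b and Mir449c could not be ordered at this depth. The levels themselves depend on the total: per 1000000 of all mapped reads, those matching several loci or no gene included, mean CPM was 304 for Mir34c, 62.4 for Mir34a, 26.1 for Mir449a and 11.6 for Mir34b, and the order was the same.

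The genes nearest in level show where the group sits among kidney miRNAs. Likeness here is closeness in mean CPM over 2 libraries, since 2 libraries allow no correlation. Next to Mir34c, at 495 ± 60.6 CPM, stood Mir676 (500.1 ± 86.5) and Mir199b (499.96 ± 36.8) above, and Mir320 (492 ± 42.2) and Mir154 (488 ± 72.3) below (SD, n = 2 each). Next to Mir34a, at 101 ± 4.32 CPM, stood Mir31 (102 ± 10.6) and Mir146 (101 ± 25.8) above, and Mir329 (98.7 ± 12.6) and Gm23935 (94.0 ± 87.0) below. Mir449a, at 42.4 ± 5.15 CPM, lay between Mir770, Mir26a-2, Mir138-1 and Mir410, whose means ran from 42.0 to 43.0 CPM. Mir34b, at 18.8 ± 2.92 CPM, lay between Mir499, Mir6539, Mir326 and Mir466n, from 18.2 to 19.97 CPM. In every case the range of the 2 libraries of the member overlapped that of its neighbour. Since the neighbours were chosen by these same means, this overlap is no separate result. Mir199b, Mir146, Gm23935, Mir26a-2, Mir138-1 and Mir466n have 20 nt in common with another miRNA gene, and reads that fit both are missing from their counts.

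**Figure D3:**
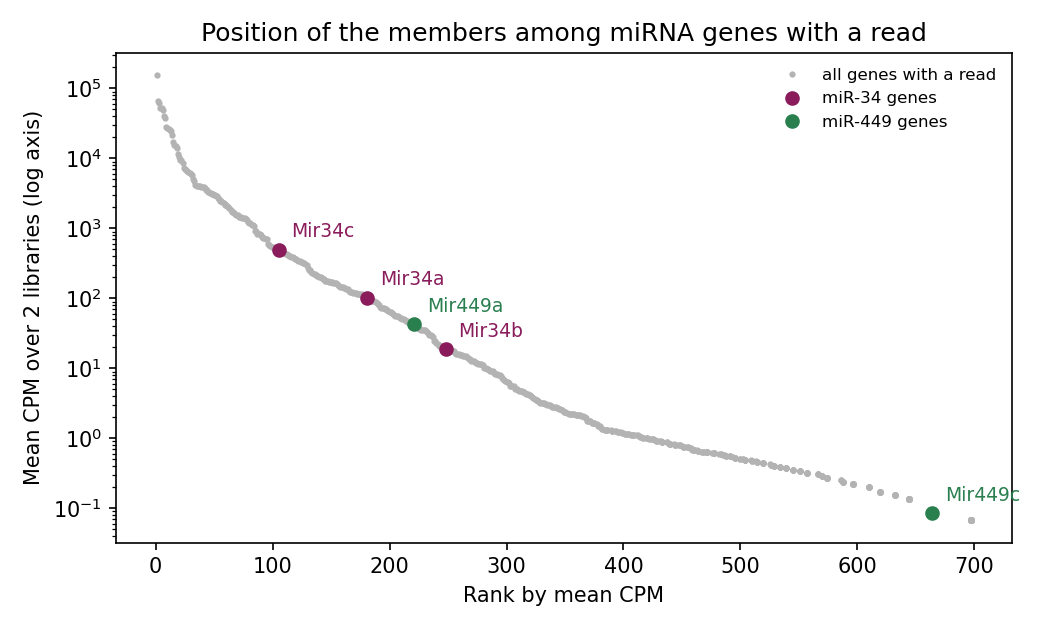
Mean CPM over 2 libraries (log axis) against rank for the 729 miRNA genes with at least 1 own-strand read (grey), with the miR-34 genes in purple and the miR-449 genes in green. Mir34c ranked 105, Mir34a 181, Mir449a 221 and Mir34b 248, while Mir449c stood near the end with 1 read in all and Mir449b, with none, is not drawn.

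Other miRNAs linked to p53, by transcription or by p53-assisted processing, stood on both sides of Mir34c. All 13 of the list reached 1 CPM in both libraries, against 20.0% of all 1973 genes. Only 729 of the 1973 had any own-strand read. The list was chosen with earlier results of these data known, so no trait of p53-linked genes follows from this. The 13 genes held 4.19% ± 0.310 of reads (SD, n = 2), most of it Mir143 at 24616 and 29016 CPM. Of the 13, 7 stood above Mir34c and 10 above Mir34a in mean CPM. Among all 1973 genes Mir34c ranked 105 and Mir34a 181. Mir192 and Mir215, p53 targets known from adult kidney and gut epithelium, showed 192 and 119 CPM, and 9.68 and 10.1 CPM. The listed Mir194-2 showed 78.3 and 68.6 CPM, and Mir194-1 showed 1.88 and 2.22 CPM. Mir145a, which is made with Mir143 in smooth muscle, showed 337 and 350 CPM, between Mir34c and Mir34a. Sequence is shared with another miRNA gene by 5 of the 13, among them Mir194-1, Mir194-2, Mir16-1 and Mir107.

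Markers of other tissues that a kidney dissection could hold were set beside the group. The gonad and germ cell list, of interest because Mir34c and Mir449a are abundant in testis, was near 0. Of 13 measured members 1 reached 1 CPM in both libraries (Mir741, at 5.38 and 4.60 CPM), against 20.0% of all 1973 genes. In both libraries 5 had 0 reads, and the list summed to 8.61 and 8.19 CPM. Mir202, a marker of gonadal somatic cells, had 4 and 10 reads. Whether the listed genes would show a gonad of this age was not tested. Another listed gene, Mir465a, was not analysed here. Among markers of other organs, Mir122 of hepatocytes showed 319 and 628 CPM and Mir206 of muscle 959 and 659 CPM. Mir375 of endocrine cells showed 1243 and 1677 CPM. Of the red cell list, Mir451a showed 254 and 371 CPM and Mir144 84.7 and 95.2 CPM. Of the leukocyte list, Mir223 of myeloid cells showed 393 CPM in both, Mir155 216 and 294 CPM and Mir150 10.2 and 12.8 CPM. No marker of multiciliated cells other than the members was measured, and the part of any of these cells in the levels of the group was not tested.

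Between the pools the log2 ratios of the members, replicate 2 over replicate 1, ran from -0.32 to 0.25. They were tested with an exact binomial test (two-sided, against the share of reads in each library) and adjusted by Benjamini-Hochberg over the 378 genes whose mean count reached 10. The test compares libraries, not conditions, and covers counting error only. It called 55.8% of those genes at an adjusted p under 0.05, 40.2% higher and 15.6% lower in replicate 2. Of the 4 members with enough reads it called 1. Mir34c was higher in replicate 2, with a log2 ratio of 0.25 (95% exact interval 0.18 to 0.32, adjusted p = 9.96e-12). Mir34a had a log2 ratio of -0.09 (-0.24 to 0.07, exact binomial, adjusted p = 0.380), Mir449a one of -0.25 (-0.497 to -0.0025, adjusted p = 0.0790) and Mir34b one of -0.32 (-0.70 to 0.06, adjusted p = 0.135). The median absolute log2 ratio over the 378 genes was 0.28, and 3 of the 4 members lay under it.

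The calls on the members turn on the scaling of the libraries, because the median tested gene itself had a log2 ratio of 0.15. Against that median Mir34c stood at 0.10, Mir34a at -0.23, Mir449a at -0.40 and Mir34b at -0.47. Scaling by TMM moved every log2 ratio by -0.13 and by DESeq2 size factors by -0.16. The same test then called Mir34c higher (log2 ratio 0.12 and 0.09) and also called the other three lower in replicate 2, Mir34a at -0.21 and -0.25, Mir449a at -0.38 and -0.41 and Mir34b at -0.45 and -0.48. The adjusted p-values of these exact binomial tests were 0.00139 and 0.0215 for Mir34c, 0.0138 and 0.00392 for Mir34a, 0.00510 and 0.00197 for Mir449a and 0.0298 and 0.0181 for Mir34b. Over all genes it then called 109 higher and 111 lower with TMM and 103 and 120 with DESeq2 size factors, against 152 and 59 with plain totals. Under each of these scalings Mir34c lay on the other side of 0 from Mir34a, Mir34b and Mir449a.

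**Figure D4:**
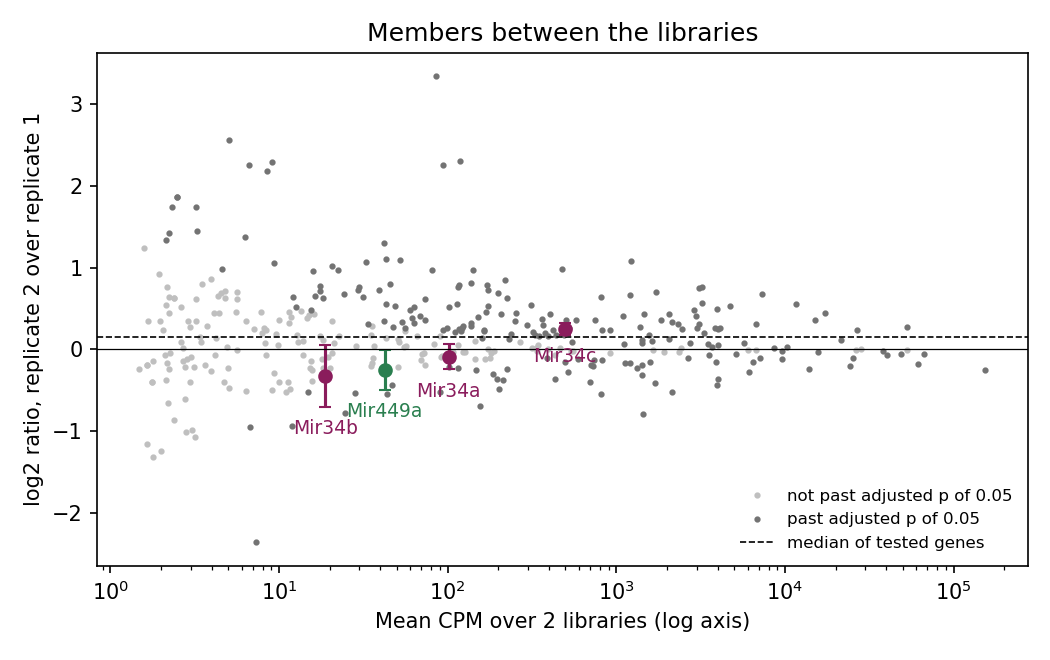
Log2 ratio of replicate 2 over replicate 1 against mean CPM (log axis) for the 378 tested genes (grey, darker past an adjusted p of 0.05), with the 4 tested members in colour and their 95% exact binomial intervals. With plain library totals Mir34c lies at 0.25, above the dashed median of 0.15, and Mir34a, Mir449a and Mir34b lie at -0.09, -0.25 and -0.32.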

How the data were processed

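Small RNA of 2 pools of embryonic kidneys was analysed. The authors deposited raw counts for each miRNA gene in 3 columns, unstranded, own-strand and opposite-strand. Per the file headers deposited beside them, the counts came from alignments to mm10 with the GENCODE M4 annotation. The aligner and the counter are not given in the sources used. Own-strand counts were used. Reads matching several loci, unmapped reads and reads in no gene stayed out of library totals.

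Genes were matched by identifier to GENCODE M21 (1894 of 1973). Named genes were all 6 members, the 2 genes next above and below each member with a mean count of at least 10, listed marker genes and genes overlapping a member; Mcidas, Ccno and Mir679 are exceptions to the rule, picked once the data had been seen. Members and lists were chosen with earlier results of these data known. With 1 group, no contrast of conditions existed. Means and SDs are over 2 libraries, intervals are 95% Clopper-Pearson, and p-values measure only the spread of counting between these libraries. On simulated libraries (replicate 2 against replicate 1, 383 genes, 200 of them changed) the binomial test found 99 of 100 genes changed 2.5-fold and 100 of 100 changed 4-fold. It called 5 of 183 unchanged genes with true totals but 64 with summed totals. The simulated counts held counting error only, without the spread between pools. No change under 2.5-fold was simulated, so differences as small as those of the members were not covered. Alternatives were other scalings, totals, strands, count filters and each library left out. Python 3.11.15 (scipy 1.17.1, pandas 2.3.3, numpy 2.4.6, matplotlib 3.10.9) and R 4.3.3 (edgeR 4.0.16 for TMM, DESeq2 1.42.0 for size factors) were used.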

Additional observations from a re-analysis of the deposited data

How the results depend on the processing

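Levels depend on the total they are divided by. With all mapped reads as the total, the group held 0.0404% of reads, the miR-34 genes 0.0378% and the miR-449 genes 0.00261%, and without the most abundant gene 0.0777%, 0.0726% and 0.00502%. TMM, DESeq2 size factors and counts without regard to strand moved these shares by less than the SD over libraries. With 2 libraries, leaving 1 out only repeats the value of the other, so the ranges that follow are those of the libraries themselves. The group held 0.0623% to 0.0692%, the miR-34 genes 0.0577% to 0.0653% and the miR-449 genes 0.00389% to 0.00460%. Mir34c exceeded Mir34a by 4.32 to 5.46 times and Mir34b by 21.7 to 32.2 times, and held 72.5% to 77.7% of the group's reads. The number of members at 1 CPM was 4 under every alternative run. Mir449a was also called lower in replicate 2 with all mapped reads as the total (log2 ratio -0.30, adjusted p = 0.0269 by the exact binomial test) and without the most abundant gene (-0.29, adjusted p = 0.0333); over all its alternatives the exact binomial test gave an adjusted p from 0.00197 to 0.124. No member's log2 ratio changed sign under any alternative. The number of genes called ranged from 194 to 223. No paired analysis was possible because the design holds 1 group. With 0 or 1 read, Mir449b and Mir449c are limited by depth. A model with replicate spread could not be fitted to 1 library on either side.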
